A study of Mus musculus with 16 samples.

Results

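The 9 genes described here encode the core, accessory and histone-binding subunits of Polycomb repressive complex 2 (PRC2), namely Ezh2, Ezh1, Eed, Suz12, Jarid2, Mtf2, Phf19, Rbbp4 and Rbbp7. They were taken by name from a table of 48593 genes, and all 9 were in the table. All 9 were also among the 16606 genes that passed the filter on low counts, and their lowest count in any library was 918, for Ezh1. The data are read counts from 16 RNA sequencing libraries of mouse germinal centre B cells.

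PRC2 places methyl groups on lysine 27 of histone H3, a mark of repressed chromatin. EZH2 or its paralog EZH1 is the catalytic subunit, EED binds the finished mark and stimulates the enzyme, SUZ12 holds the complex together, and RBBP4 and RBBP7 bind histones. JARID2, MTF2 and PHF19 are accessory subunits that direct the complex to its targets. In germinal centres, where activated B cells divide fast and mutate their antibody genes, EZH2 is abundant and represses genes that stop the cell cycle or lead to plasma cells. CREBBP, the histone acetyltransferase altered in the mice of this study, can acetylate the same lysine that PRC2 methylates.

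Mice were immunised with sheep red blood cells, and B220+ PNA+ CD95+ cells were sorted from B cells, with spleen given as the source. One cohort compared mice with Crebbp deleted on both alleles in germinal centre B cells (KO, 3 libraries) with wild type mice (KO cohort WT, 3 libraries). The other compared mice carrying an arginine-to-histidine allele of Crebbp on 1 allele (RH HET, 4 libraries) or on both (RH HOMO, 3 libraries) with their own wild type (RH cohort WT, 3 libraries). The labels name no Cre driver, no strain and no age. They do not say that libraries came from different mice, so p-values measure only the spread between these libraries.

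Totals ran from 41362856 to 93040297 counts per library. On principal component 1 of log2 expression, RH HOMO 2 (77.1) and RH cohort WT 1 (50.7) were far from the other libraries, which lay between -40.7 and 24.3. The title of RH cohort WT 1 puts it in the knock-in cohort and its batch tag puts it in the knockout cohort. The share of counts on mitochondrial genes was 7.34% in RH cohort WT 1 and 7.15% in RH cohort WT 2, and 3.43% to 5.84% in the other 14 libraries. The count of the whole Crebbp gene was 108 to 137 CPM (counts scaled to a common library total) in KO and 127 to 149 CPM in KO cohort WT, and such a count does not test whether the deleted exons are lost. The 10 germinal centre B cell markers used, Bcl6 among them, were above 0 in each group, with a summed level of 5406 to 6700 CPM over the libraries. Cd3e, which defines T cells, reached at most 0.126 CPM.

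Promoter windows of 3 genes are shown because Ezh2 and Ezh1 encode exchangeable catalytic subunits whose levels moved in opposite directions across the libraries, and because Phf19 had the largest difference between the genotype effects. Each window runs from 250 bases before to 50 bases after the RefSeq start site on GRCm38, the same assembly as mm10, and is written 5′ to 3′ on the strand of the gene. Capitals mark a match to an E2F motif, searched on both strands as TTTGGCGC, TTTCGCGC, TTTCCCGC or TTTGCCGC. E2F factors drive genes of DNA replication and division. The windows are chr6:47594981-47595280 (minus strand) for Ezh2, chr11:101226414-101226713 (minus strand) for Ezh1 and chr2:34913927-34914226 (minus strand) for Phf19.
Ezh2: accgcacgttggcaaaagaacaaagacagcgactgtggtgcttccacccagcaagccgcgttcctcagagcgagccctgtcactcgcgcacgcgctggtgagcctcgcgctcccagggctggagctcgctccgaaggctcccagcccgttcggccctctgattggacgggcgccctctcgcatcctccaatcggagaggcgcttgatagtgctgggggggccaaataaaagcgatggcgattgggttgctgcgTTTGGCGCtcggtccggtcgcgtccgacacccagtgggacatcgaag
Ezh1: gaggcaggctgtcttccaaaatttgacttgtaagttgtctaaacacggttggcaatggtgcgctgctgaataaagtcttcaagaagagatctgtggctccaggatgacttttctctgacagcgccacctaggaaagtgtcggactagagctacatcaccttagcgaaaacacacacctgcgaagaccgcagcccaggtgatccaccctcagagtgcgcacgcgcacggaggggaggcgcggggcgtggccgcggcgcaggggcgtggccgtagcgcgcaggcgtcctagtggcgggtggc
Phf19: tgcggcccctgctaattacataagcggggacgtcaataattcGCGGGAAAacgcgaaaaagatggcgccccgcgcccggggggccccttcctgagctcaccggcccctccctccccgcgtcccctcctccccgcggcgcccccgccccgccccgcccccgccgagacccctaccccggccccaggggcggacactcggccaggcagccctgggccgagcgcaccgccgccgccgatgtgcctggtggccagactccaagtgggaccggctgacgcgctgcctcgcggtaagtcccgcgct
The match in Ezh2 began at base 4 after the start site, and the match in Phf19 began 208 bases before it, as the reverse complement GCGGGAAA. Suz12 had a match that began 219 bases before its start site. The other 6 genes had none in these windows, of which there were 11, since Jarid2 and Mtf2 each had 2. Of all 32851 promoter windows of this length, 2.26% held an E2F match. A CCAAT box, searched as CCAAT on both strands, was found in 8 of the 11 windows, in 7 of the 9 genes, and in 37.4% of all windows. The cAMP response element TGACGTCA, the site bound by the CREB factor that CREBBP is named for, was found in none of the 9 genes and in 1.79% of all windows. These are letter matches, not measured binding.

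Levels between genes were compared as CPM per kilobase of exons. Rbbp7 was highest at 137 ± 9.05 CPM per kilobase (mean ± SD over 16 libraries). Suz12 followed at 60.0 ± 7.27, then Phf19 at 46.9 ± 5.11, Rbbp4 at 42.3 ± 2.86, Mtf2 at 40.9 ± 6.21, Ezh2 at 37.4 ± 2.84 and Eed at 35.4 ± 3.86. These last 5 lie within a narrow band, and neighbours from Phf19 to Eed differed by less than the larger of their SDs. Ezh1, at 4.26 ± 0.485, and Jarid2, at 3.78 ± 0.498, were far below the other 7, and their ranges over libraries overlapped. The order in the middle depended on the length used. With the length of the principal transcript instead, Ezh2 (89.7 ± 6.82) and Rbbp4 (84.0 ± 5.67 CPM per kilobase) ranked above Suz12 (67.8 ± 8.22), while Rbbp7 stayed first at 177 ± 11.7 and Ezh1 and Jarid2 stayed last at 7.56 ± 0.860 and 6.12 ± 0.807.

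Within a gene, levels were compared as CPM. The coefficient of variation over the 16 libraries ran from 6.62% for Rbbp7 to 15.2% for Mtf2, against a median of 12.5% over the 7108 tested genes with a mean of at least 20 CPM. The highest library exceeded the lowest by 1.26 times for Rbbp4 and by 1.82 times for Mtf2. Mtf2 and Jarid2 (13.2%) lay above that median and the other 7 genes below it.

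**Figure D1:**
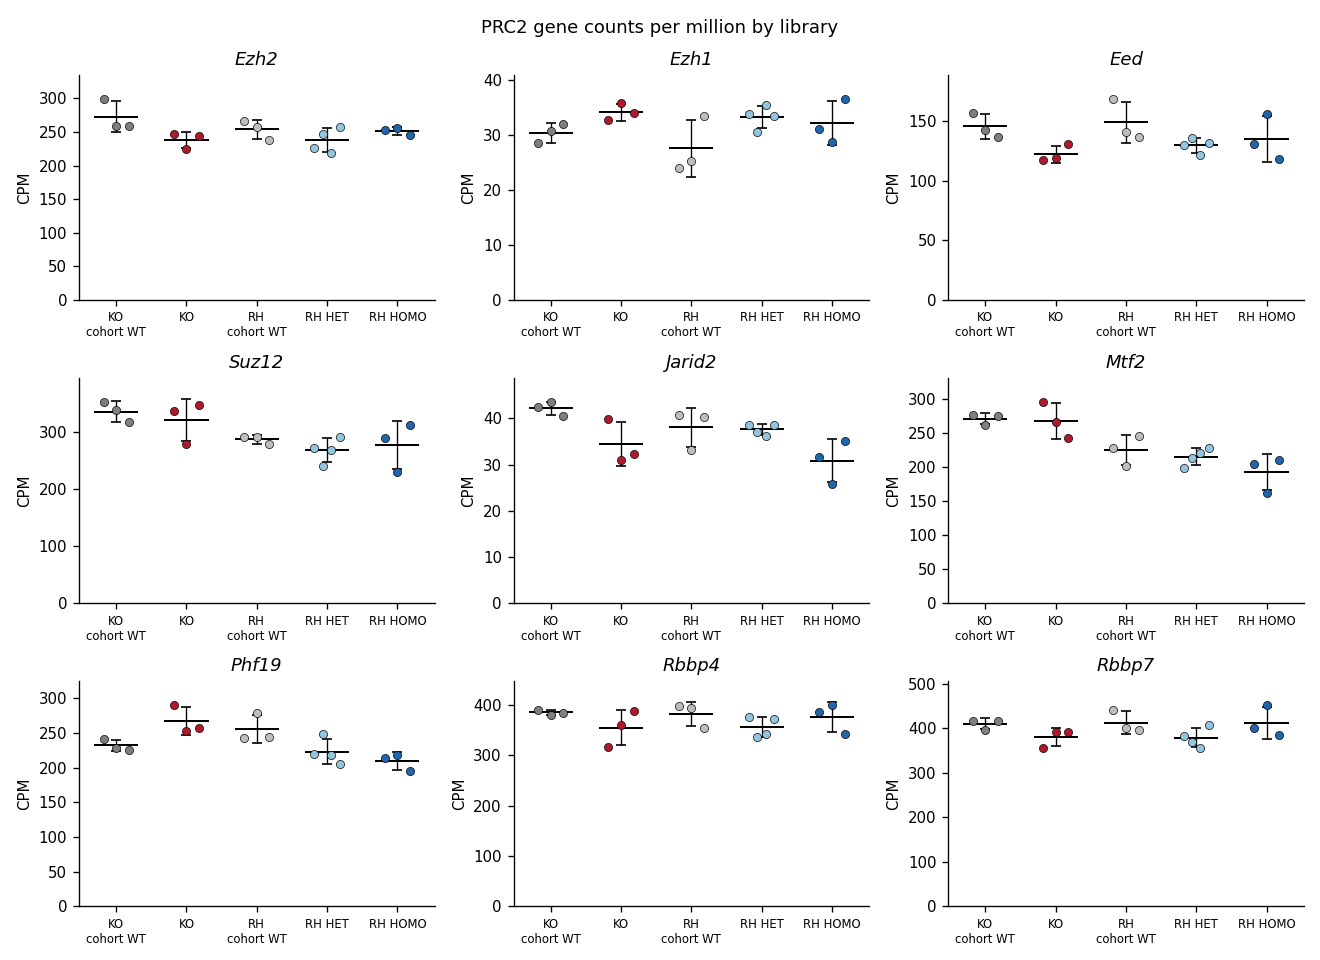
CPM of the 9 PRC2 genes in each library, in 5 groups, with group means (horizontal bars) and SD (error bars). Mtf2 shows the widest spread, from 162 to 295 CPM, and Rbbp4 one of the narrowest, from 318 to 400 CPM.

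Crebbp genotype moved no PRC2 gene past the threshold in the main test. With edgeR's quasi-likelihood test, called at a Benjamini-Hochberg adjusted p under 0.05 over all tested genes, 0 of 9 were called in KO, 0 of 9 in RH HET and 0 of 9 in RH HOMO, each against its cohort's wild type. Of all tested genes, 1.3% were called in KO, 0.0181% in RH HET and 1.57% in RH HOMO. At an unadjusted p under 0.05 the 9 genes numbered 4, 2 and 3, against 12.1%, 7.18% and 12.9% of all genes. DESeq2 called 0, 0 and 1 of the 9, and limma-voom 1, 0 and 1. The 95% intervals of the fold changes lay between 0.683 and 1.34 for KO, 0.754 and 1.43 for RH HET and 0.678 and 1.39 for RH HOMO. In bulk RNA, fewer cells of a type and less RNA per cell cannot be told apart.

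The point estimates were mostly below 0. They were negative for 7 of 9 genes in KO, 8 of 9 in RH HET and 8 of 9 in RH HOMO, with median log2 fold changes of -0.11, -0.10 and -0.05. Over all tested genes the medians were -0.002, -0.007 and 0.02. Positive values made up 49.7%, 48.8% and 52.7% of all tested genes in KO, RH HET and RH HOMO. RH HET and RH HOMO share their wild type libraries, so their values are not independent.

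**Figure D2:**
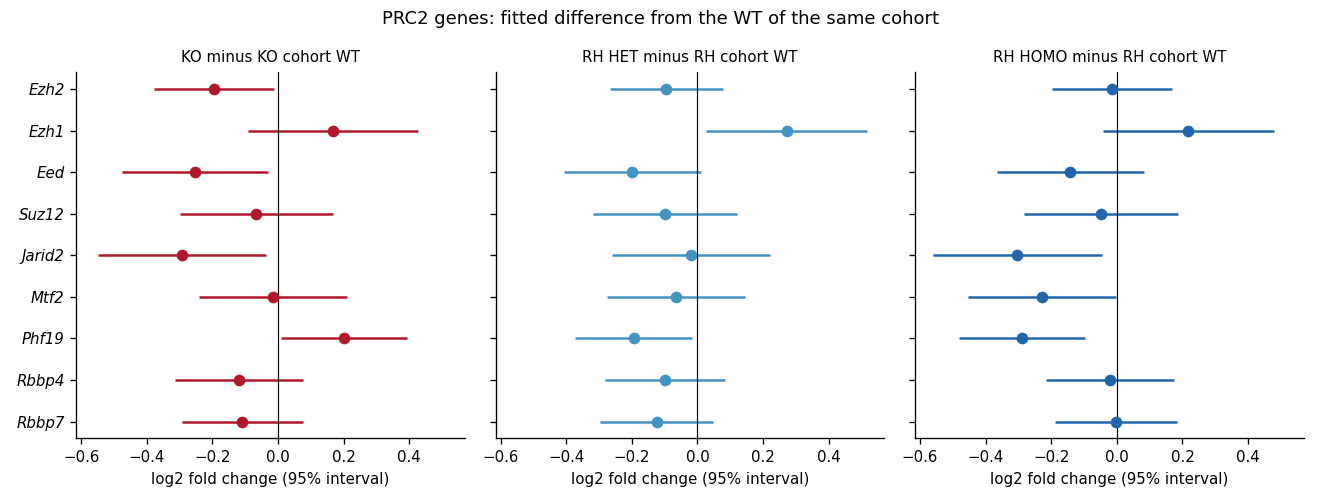
Log2 fold change of each PRC2 gene against the wild type of its cohort (points) with 95% intervals (lines), for KO, RH HET and RH HOMO. The intervals span from -0.56 to 0.52, and Phf19 lies above 0 in KO and below 0 in RH HOMO.

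Ezh2, the main catalytic subunit of dividing cells, was at 299, 259 and 259 CPM in KO cohort WT and at 246, 224 and 243 CPM in KO. All 3 KO libraries were below all 3 wild types. The log2 fold change was -0.20 ± 0.09 (SE), with an adjusted p of 0.371 (edgeR), and it was -0.11 without KO cohort WT 1. In the knock-in cohort Ezh2 was at 266, 257 and 238 CPM in wild type, at 227, 247, 219 and 258 CPM in RH HET and at 253, 256 and 245 CPM in RH HOMO. These groups overlapped, and the log2 fold changes were -0.10 ± 0.08 in RH HET and -0.01 ± 0.09 in RH HOMO. The latter estimate has a 95% interval that covers both directions, and its sign changed under several settings.

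Ezh1, the paralog found mostly in resting cells, was at 28.5, 30.8 and 32.1 CPM in KO cohort WT and at 32.8, 35.8 and 34.1 CPM in KO. The KO libraries were all higher, by a log2 fold change of 0.17 ± 0.12 with an adjusted p of 0.674 (edgeR). In RH cohort WT, Ezh1 was at 24.1, 25.3 and 33.6 CPM, so that libraries 1 and 2 were the lowest of all 16. RH HET libraries were at 33.9, 30.7, 35.6 and 33.5 CPM and RH HOMO libraries at 31.2, 28.8 and 36.6 CPM, and both groups overlapped the wild type. The log2 fold changes were 0.27 ± 0.12 in RH HET (adjusted p = 0.662, edgeR) and 0.22 ± 0.12 in RH HOMO (adjusted p = 0.5, edgeR).

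The 2 low wild type libraries are the ones with the high mitochondrial share. Over the 16 libraries, log2 CPM of Ezh1 and the mitochondrial share had a Pearson r of -0.83 and a Spearman rho of -0.59, and r was -0.45 without the 2 libraries farthest from the median share. With a term for the mitochondrial share in the model, an alternative chosen after seeing the data, the Ezh1 difference was 0.016 in place of 0.27 in RH HET and -0.02 in place of 0.22 in RH HOMO. Single libraries also moved it: without RH cohort WT 3 it was 0.44 in RH HET and 0.38 in RH HOMO, and in RH HOMO it was 0.12 if RH cohort WT 1 was left out and 0.11 if RH HOMO 3 was. With RH cohort WT 1 moved to the knockout cohort, the Ezh1 difference was 0.25 in KO and 0.12 in RH HOMO. The mitochondrial share's part in the results for other genes was not tested beyond the values given with that term.

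The ratio of Ezh2 to Ezh1, taken per kilobase of exons within a library, does not depend on how libraries are scaled. It was 11.7, 9.36 and 9.0 in KO cohort WT and 8.38, 6.98 and 7.95 in KO, with no overlap. The log2 difference was -0.36, with a 2-sided exact permutation p of 0.1, the smallest that 3 against 3 libraries can give. In RH cohort WT the ratio was 12.3, 11.3 and 7.90, and it was 7.44, 8.98, 6.86 and 8.58 in RH HET and 9.06, 9.91 and 7.45 in RH HOMO. The log2 differences were -0.38 in RH HET (exact permutation p = 0.143, smallest possible 0.0286) and -0.24 in RH HOMO (exact permutation p = 0.4, smallest possible 0.1). Adjusted over the 3 comparisons by Benjamini-Hochberg, the exact p-values were 0.214, 0.214 and 0.4, and both knock-in groups overlapped the wild type.

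**Figure D3:**
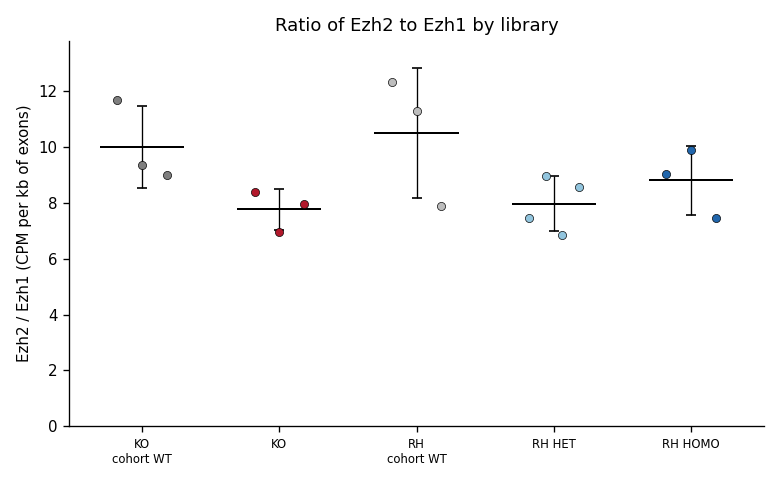
Ratio of Ezh2 to Ezh1, each as CPM per kilobase of exons, in each library, with group means (horizontal bars) and SD (error bars). The 3 KO libraries, at 6.98 to 8.38, lie below the 3 KO cohort WT libraries, at 9.0 to 11.7.

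Eed, which reads the methylated lysine, was at 157, 143 and 136 CPM in KO cohort WT and at 117, 119 and 130 CPM in KO. The groups did not overlap, and the log2 fold change was -0.25 ± 0.11 (adjusted p = 0.326, edgeR). In RH cohort WT it was at 168, 141 and 137 CPM and in RH HET at 130, 136, 121 and 132 CPM. RH HET was lower without overlap, by a log2 fold change of -0.20 ± 0.10 (adjusted p = 0.725, edgeR). That difference was -0.09 without RH cohort WT 1, -0.10 with that library moved to the knockout cohort and -0.06 with the mitochondrial-share term. RH HOMO libraries were at 130, 156 and 118 CPM, and RH HOMO 2 was the highest of them. Eed followed the share of counts that are even numbers, a property of the deposited counts that was highest in RH cohort WT 1 and RH HOMO 2, with a Pearson r of 0.73 and a Spearman rho of 0.57 over 16 libraries, and r was 0.44 without the 2 libraries farthest from the median share. The same share had a Pearson r of 0.67 with Rbbp7, 0.58 with Rbbp4 and -0.62 with Ezh1. For Ezh2 and Mtf2 r was 0.41 and -0.45, and for Suz12, Phf19 and Jarid2 it was -0.29, -0.29 and -0.19. The part of the share of even counts in the differences of Eed or the other genes was not tested.

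Suz12, the scaffold, was at 353, 339 and 317 CPM in KO cohort WT and 337, 280 and 348 CPM in KO. It was at 291, 292 and 279 CPM in RH cohort WT, 273, 241, 268 and 292 CPM in RH HET and 290, 231 and 312 CPM in RH HOMO. All 3 genotypes overlapped their wild types, and the log2 fold changes of -0.07, -0.10 and -0.05 were each smaller than their standard errors of 0.11, 0.10 and 0.11. The wild types of the cohorts did not overlap for Suz12, with the knock-in cohort lower by a log2 fold change of -0.23 ± 0.11 (adjusted p = 0.209, edgeR).

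Among the accessory subunits, Jarid2 was at 42.4, 43.5 and 40.6 CPM in KO cohort WT and at 39.9, 31.1 and 32.4 CPM in KO. The KO libraries were all lower, by a log2 fold change of -0.29 ± 0.12 (adjusted p = 0.323, edgeR), and limma-voom called it at an adjusted p of 0.0399. In RH HOMO it was at 31.7, 25.8 and 35.2 CPM, against 40.7, 33.2 and 40.4 CPM in RH cohort WT and 38.6, 37.1, 36.2 and 38.5 CPM in RH HET. The RH HOMO difference from wild type was -0.30 ± 0.12 on the log2 scale (adjusted p = 0.28, edgeR), with overlapping groups. RH HOMO 2, one of the libraries that stood apart, was the lowest of all 16. Without it the Jarid2 difference was -0.19, and with limma-voom it was -0.16.

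Mtf2, which recruits PRC2 to CpG-rich DNA, was lower in the wild type of the knock-in cohort by limma-voom and was not called by edgeR. It was at 276, 261 and 275 CPM in KO cohort WT and at 228, 202 and 246 CPM in RH cohort WT, a log2 fold change of -0.27 ± 0.11 (adjusted p = 0.132, edgeR) without overlap. Limma-voom gave -0.34 with an adjusted p of 0.00741, in a comparison where it called 26.2% of all genes, and DESeq2 an adjusted p of 0.0833. KO libraries were at 295, 267 and 242 CPM, on both sides of their wild type. RH HET libraries were at 199, 214, 221 and 228 CPM and RH HOMO libraries at 204, 162 and 211 CPM. The RH HOMO difference was -0.23 ± 0.11 (adjusted p = 0.38, edgeR), and RH HOMO 2 was again the lowest. Without RH HOMO 2 the Mtf2 difference was -0.12, and with limma-voom it was -0.079.

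Phf19, a Polycomb-like subunit that binds methylated lysine 36 of histone H3, had genotype effects that differed more than those of the other 8 genes. It was at 242, 228 and 226 CPM in KO cohort WT and at 290, 253 and 258 CPM in KO, so that KO was higher without overlap. In RH cohort WT it was at 243, 279 and 244 CPM, in RH HET at 220, 249, 219 and 206 CPM and in RH HOMO at 215, 219 and 195 CPM. RH HOMO was lower without overlap, while RH HET overlapped the wild type. The wild types of the cohorts did not overlap for Phf19 either. The knock-in cohort's wild type was higher by a log2 fold change of 0.14 ± 0.09 (adjusted p = 0.36, edgeR), and it overlapped KO. The log2 fold changes were 0.20 ± 0.09 in KO, -0.19 ± 0.08 in RH HET and -0.29 ± 0.09 in RH HOMO, with adjusted p-values of 0.376, 0.662 and 0.135 (edgeR). DESeq2 and limma-voom called the RH HOMO difference, at adjusted p-values of 0.0395 and 0.0113. With the mitochondrial-share term the Phf19 differences were -0.17 in RH HOMO and -0.06 in RH HET, and without RH cohort WT 2 the RH HET difference was -0.11.

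The difference between the RH HOMO effect and the KO effect was tested directly. For Phf19 it was -0.49 ± 0.13 on the log2 scale, with a 95% interval of -0.76 to -0.22, an unadjusted p of 0.00139 and an adjusted p of 0.14 (edgeR). DESeq2 gave -0.50 with an adjusted p of 0.0178 and limma-voom -0.51 with an adjusted p of 0.0104. With the mitochondrial-share term it was -0.37 (adjusted p = 0.207, edgeR), and without each library in turn it was -0.54 to -0.43, with no edgeR call. Phf19 was the 1 gene of the 9 at an unadjusted p under 0.05 in this comparison, and 0 of 9 were called by edgeR. Of all genes, 0.241% were called by edgeR, 9.53% had an unadjusted p under 0.05, 1.46% were called by DESeq2 and 3.88% by limma-voom. For RH HOMO against wild type, DESeq2 called 3.88% and limma-voom 6.74% of all genes, and for KO limma-voom called 5.68%.

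Rbbp4 and Rbbp7, histone-binding subunits that also serve in other chromatin complexes, had small differences. Rbbp4 was at 391, 381 and 385 CPM in KO cohort WT and 318, 360 and 388 CPM in KO, with a log2 fold change of -0.12 ± 0.09 (adjusted p = 0.699, edgeR). Over the knock-in cohort it was at 336 to 400 CPM, with differences of -0.10 in RH HET and -0.02 in RH HOMO. Rbbp7, on the X chromosome, was at 418, 397 and 417 CPM in KO cohort WT and 357, 393 and 392 CPM in KO, a fold change of -0.11 ± 0.09 on the log2 scale without overlap (adjusted p = 0.711, edgeR). Its differences in RH HET and RH HOMO were -0.12 and -0.003.

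Counted together, 6 of the 9 genes did not overlap between KO and wild type, against 25.4% of all tested genes. In RH HET it was 1 of 9 (Eed) against 6.49%, and in RH HOMO 1 of 9 (Phf19) against 15.4%. The 9 genes were measured in the same libraries, so these are not 9 separate observations. Between RH HOMO and RH HET, 0 of 9 were called by edgeR, DESeq2 or limma-voom, and edgeR called 0% of all genes. Jarid2 alone had an unadjusted p under 0.05 there (log2 fold change -0.29, adjusted p = 0.403, edgeR), against 11.4% of all genes.

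The summed level of 4 dark zone markers, which mark the dividing compartment of the germinal centre, was 3726 to 4429 CPM in KO and 4525 to 5176 CPM in KO cohort WT. It was 2588 to 3360 CPM in RH HOMO, 3394 to 4062 CPM in RH HET and 3746 to 3924 CPM in RH cohort WT. The markers include Mki67 and Ccnb1, genes of cycling cells, and none of the 4 was at 0. Most of the sum was Mki67, with a median of 3086 CPM over the libraries. The medians of Cxcr4, Foxo1 and Ccnb1 were 261, 262 and 151 CPM. In KO, summed markers were also below KO cohort WT without overlap for germinal centre B cells (5616 to 5932 against 6078 to 6700 CPM, 10 genes) and plasma cells (567 to 586 against 646 to 676 CPM, 6 genes). Most of the plasma cell sum was Jchain and Xbp1, with medians of 467 and 133 CPM over the libraries. Irf4, Prdm1, Sdc1 and Tnfrsf17 had medians of 42.6, 4.5, 1.0 and 0.0453 CPM. Prdm1 and Irf4 overlapped between KO and KO cohort WT, with log2 fold changes of 0.23 and -0.15. The 8 T cell markers summed to 77.8 to 82.3 CPM in KO and 97.7 to 110.6 CPM in KO cohort WT, nearly all of it Lck, while none of the other 7 passed 1.87 CPM in any library. The 5 dendritic cell markers likewise summed to 35.3 to 39.0 CPM in KO and 47.0 to 58.0 CPM in KO cohort WT, nearly all of it Flt3. In RH HOMO the germinal centre B cell sum was 5406 to 5831 CPM, below the 5892 to 6333 CPM of RH cohort WT. The 5 light zone markers, such as Cd83 and Cd86, summed to 649 to 769 CPM in RH HOMO, 667 to 713 CPM in RH HET and 446 to 637 CPM in RH cohort WT, so that both genotypes were above the wild type without overlap. The part of these shifts in the differences of the PRC2 genes, or of Cdkn2a described further on, was not tested. Of 22 E2F target and proliferation genes, 0 were called in any of the 3 genotypes, with median log2 fold changes of -0.03 in KO, -0.13 in RH HET and -0.06 in RH HOMO. The shares called over all tested genes were 1.3%, 0.0181% and 1.57%. Of the 22 genes, 13 in KO, 19 in RH HET and 13 in RH HOMO had negative log2 fold changes.

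Across libraries the PRC2 genes did not rise and fall as a block. After removing group means, log2 CPM of Ezh2 and Ezh1 had a Pearson r of -0.68 over 16 libraries, Ezh1 and Eed -0.76, and Ezh2 and Eed 0.61. Eed and Rbbp7 had an r of 0.78, as had Rbbp4 and Rbbp7. Jarid2 and Mtf2 formed another pair, at 0.79, which ran against Rbbp4 at -0.60 and -0.69. Without removing group means, Ezh2 and Ezh1 had a Pearson r of -0.65 and a Spearman rho of -0.79, and r was -0.67 without the 2 libraries farthest from the median of Ezh2. These are descriptions, since all genes of a library share its depth, RNA quality and scaling. With group means removed, the share of even counts had a Pearson r of 0.81 with Eed, 0.60 with Rbbp7 and 0.51 with Rbbp4. It was -0.71 with Ezh1, 0.32 with Ezh2, -0.23 with Jarid2 and -0.40 with Mtf2. The part of that share in these pairs was not tested.

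**Figure D4:**
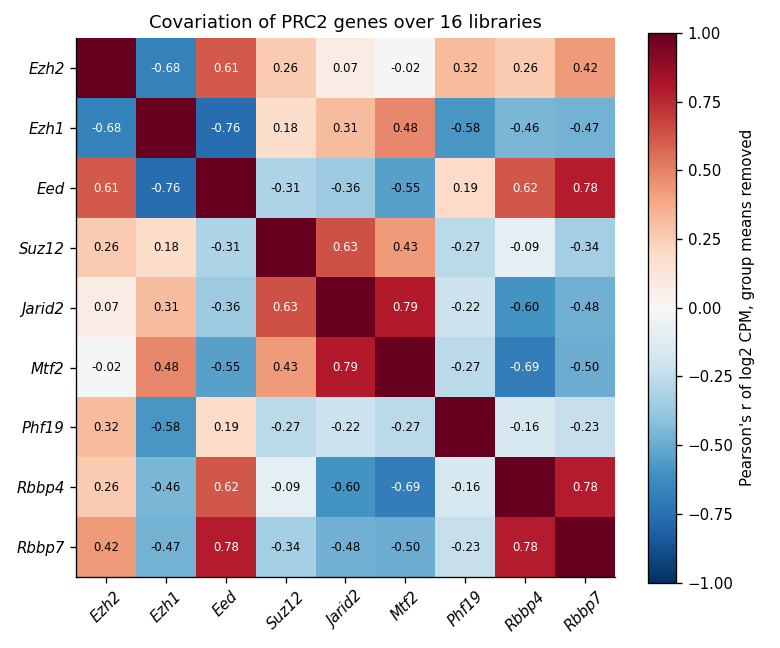
Pearson's r between the log2 CPM of each pair of PRC2 genes over 16 libraries after removing group means, from blue (negative) to red (positive). Eed, Rbbp4 and Rbbp7 vary together at 0.62 to 0.78, Jarid2 and Mtf2 at 0.79, and Ezh1 runs against Ezh2 and Eed.

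By Pearson r over the 16 libraries, the genes most like Ezh2 were Cep83 (0.88), Mtif2 (0.86), Cenpu (0.86), Cbwd1 (0.85) and Nuf2 (0.83). For comparison, Eed had an r of 0.71 with Ezh2 and Suz12 one of 0.41. The genes most like Ezh1 were Fam3a (0.94), Fbxl20 (0.90), Fzd5 (0.90), Rab5b (0.90) and Zfp319 (0.88).

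A gene known from other work as a PRC2 target was called in RH HOMO. Cdkn2a, which encodes the cell cycle inhibitors p16INK4a and p19ARF and is a textbook target of EZH2, rose in RH HOMO. It was at 0.262, 1.33 and 0.842 CPM in RH cohort WT, at 1.43, 2.74, 2.31 and 2.12 CPM in RH HET and at 4.49, 6.10 and 2.98 CPM in RH HOMO. In KO cohort WT it was at 1.35, 0.698 and 0.762 CPM and in KO at 2.59, 2.86 and 2.12 CPM. Each genotype was above its wild type without overlap, and all RH HOMO libraries were above all RH HET libraries. These read counts do not measure histone methylation or PRC2 binding, and the part of PRC2 in the Cdkn2a differences was not tested.

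The log2 fold change of Cdkn2a was 2.45 ± 0.43 in RH HOMO (adjusted p = 0.00646, edgeR), 1.45 ± 0.42 in KO (adjusted p = 0.113) and 1.38 ± 0.40 in RH HET (adjusted p = 0.414). RH HOMO exceeded RH HET by 1.07 ± 0.37 (adjusted p = 0.349, edgeR). Levels were low, with 10 to 73 counts per library in RH cohort WT and 143 to 386 in RH HOMO, and a count per gene does not tell the 2 proteins' transcripts apart. The RH HOMO call was lost when only the compared libraries were fitted (2.44, adjusted p = 0.159, edgeR) and when RH cohort WT 1 was moved to the knockout cohort (2.04, adjusted p = 0.0662, edgeR). It held when each library was left out in turn, with log2 fold changes of 2.05 to 2.99, and without RH cohort WT 1 and RH HOMO 2 together (1.78, adjusted p = 0.0307, edgeR).

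**Figure D5:**
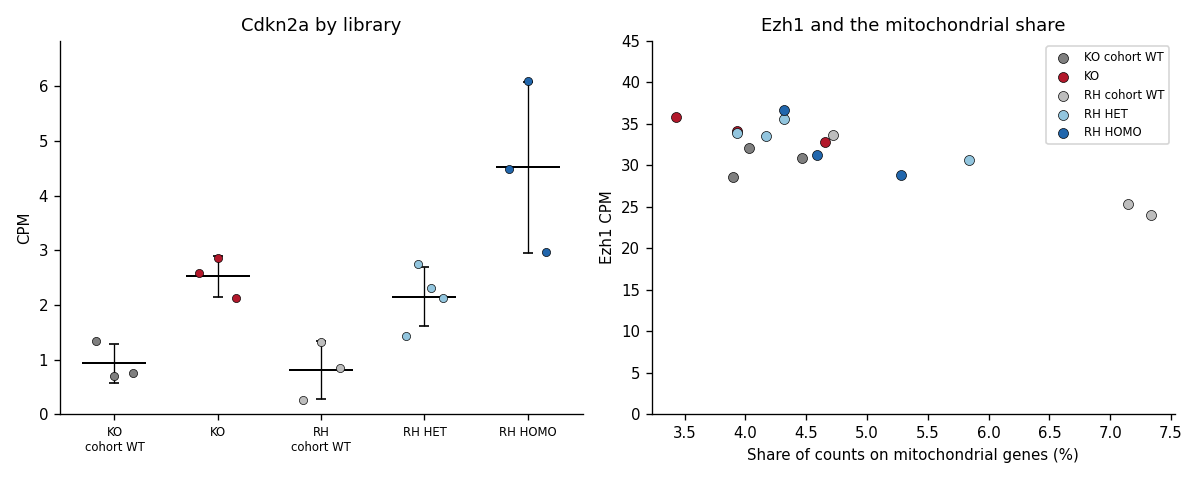
Left, CPM of Cdkn2a in each library, with group means (horizontal bars) and SD (error bars). Right, Ezh1 CPM against the share of counts on mitochondrial genes, 1 point per library. Cdkn2a runs from 2.98 to 6.10 CPM in RH HOMO and from 0.262 to 1.33 CPM in RH cohort WT, and the 2 libraries with the highest mitochondrial share, at 7.15% and 7.34%, have the lowest Ezh1.

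The other 4 genes on the list of genes repressed by EZH2 in germinal centre B cells were not called in KO, RH HET or RH HOMO. Of all tested genes, 1.3%, 0.0181% and 1.57% were called in these groups. Cdkn1b, which encodes the cell cycle inhibitor p27, had log2 fold changes of 0.43 ± 0.19 in KO, 0.28 ± 0.18 in RH HET and 0.63 ± 0.19 in RH HOMO, with adjusted p-values of 0.345, 0.763 and 0.113 (edgeR). It was at 15.4, 23.5 and 27.1 CPM in RH cohort WT and at 34.8, 29.0 and 38.5 CPM in RH HOMO, without overlap. Cdkn1a, the inhibitor p21, had log2 fold changes of 0.17 in KO, -0.41 in RH HET and -0.38 in RH HOMO. Prdm1, which drives plasma cell differentiation, was at 0.23, 0.26 and 0.25, and Irf4, which acts with it, at -0.15, 0.16 and -0.02.

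Of 39 Hox genes, classic targets of Polycomb repression, 6 passed the count filter. Of these 6, 1 was called in RH HOMO, against 1.57% of all tested genes, and it was Hoxa6. It had 0 counts in all 3 RH cohort WT libraries, 16, 8, 12 and 4 counts in RH HET and 29, 7 and 10 counts in RH HOMO. Over the group, RH HOMO was at 0.271 CPM, at least 13.3-fold higher than the level of 3 counts over the RH cohort WT libraries. The adjusted p was 0.0481 (edgeR), and the call was kept under 7 of 23 alternatives. No wild type library of either cohort had more than 6 counts, so Hoxa6 passed the count filter only through libraries of the altered genotypes. A call of higher Hoxa6 in such a genotype is therefore not independent of the filter. Hoxa6 overlaps Hoxa3, which lies on the same strand and had 211 counts over the 16 libraries against 118 for Hoxa6, and an antisense gene, and reads of these genes may not be told apart.

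Few genes of the other Polycomb subunits or of the enzymes that remove the mark were called. Of the other PRC2 accessory genes, 0 of 5 tested were called in KO, RH HET or RH HOMO, with log2 fold changes in RH HOMO of 0.11 for Aebp2, 0.08 for Phf1, 0.05 for Epop, -0.14 for Lcor and 0.12 for Lcorl. In KO the same genes were at 0.05, 0.33, 0.35, -0.03 and -0.06, and in RH HET at 0.10, 0.10, -0.21, 0.37 and 0.03. The shares called over all tested genes were 1.3% in KO, 0.0181% in RH HET and 1.57% in RH HOMO. Of the H3K27 demethylases, Kdm6b had a log2 fold change of -0.29 ± 0.13 in RH HOMO (adjusted p = 0.359, edgeR), 0.14 in KO and 0.10 in RH HET.

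Kdm6a, the X-linked demethylase that escapes X inactivation, ran from 54.0 to 189 CPM. It was at 134 to 189 CPM in the 7 libraries with over 1000 Xist counts and at 54.0 to 96.2 CPM in the other 9. Xist, the RNA of the inactive X, passed that level in 1 library each of KO, RH HET and RH cohort WT and in 2 libraries each of RH HOMO and KO cohort WT. The log2 fold changes of Kdm6a, -0.39 ± 0.40 in KO, 0.05 ± 0.38 in RH HET and 0.23 ± 0.41 in RH HOMO, therefore compare groups of unequal makeup. Rbbp7, also X-linked, had medians of 400 and 393 CPM in the same sets of libraries.

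PRC1, the complex that adds ubiquitin to histone H2A and in some of its forms recognises the mark made by PRC2, had 25 tested genes. Of these, 1 rose in KO and 0 were called in RH HET or RH HOMO. Over all tested genes, 1.3% were called in KO, 0.0181% in RH HET and 1.57% in RH HOMO. The PRC1 gene called in KO was Scmh1, at 19.8 ± 2.96 CPM in KO cohort WT and 30.1 ± 2.72 CPM in KO (SD, n = 3 each). Its log2 fold change was 0.60 ± 0.14 (adjusted p = 0.0414, edgeR), and leaving out any 1 of the 6 libraries compared, RH HET 1 or RH HOMO 1 ended the call, with adjusted p-values of 0.0529 to 0.205. The median log2 fold change of the 25 genes was 0.10 in KO, 0.04 in RH HET and 0.04 in RH HOMO. Of 7 tested genes of the complex that removes that ubiquitin, 1 was called in RH HOMO, against 1.57% of all tested genes. This gene, Asxl1, fell in RH HOMO from 192 ± 10.0 to 140 ± 22.0 CPM (SD, n = 3 each). Its log2 fold change was -0.46 ± 0.10 (adjusted p = 0.0319, edgeR). Leaving out any 1 of the 6 libraries compared but RH HOMO 3, or KO cohort WT 2, ended the call, with adjusted p-values of 0.0504 to 0.11, and without RH HOMO 2 the log2 fold change was -0.34. The Asxl1 call was also lost when only the compared libraries were fitted (adjusted p = 0.366, edgeR) and when RH cohort WT 1 was moved to the knockout cohort (adjusted p = 0.124, edgeR). Counting all alternatives, it was kept under 15 of 24, with log2 fold changes of -0.56 to -0.31.

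Each of Ezh2, Eed, Suz12, Jarid2, Mtf2, Phf19, Rbbp4 and Rbbp7 overlaps another annotated gene, and Ezh1 overlaps none. Where that gene lies on the other strand its reads cannot be told apart, since the library kit does not mark strand. Of the genes on the other strand, the one with the most counts was Tmed5, which overlaps Mtf2 and had 86969 counts over the 16 libraries against 202981 for Mtf2. These are counts of whole genes and do not show how many reads lie in the shared stretch.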

How the data were processed

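Total RNA of sorted germinal centre B cells was prepared for sequencing with the TruSeq RNA v2 chemistry, per the labels' protocols. The values are whole-number read counts per gene symbol, made by the authors with CASAVA 1.8, HISAT2 and featureCounts on mm10, per the submitters' processing notes; the strand setting and other versions: not given in the sources used here. Of the counts of at least 20, between 61.6% and 68.2% per library were even numbers. The table held 0 other per-sample columns. Groups came from the sample titles, since several tags are shifted against their values, and replicate numbers in accession order only name libraries. The labels disagree on the days between immunisation and sorting.

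The main test was that of edgeR 4.0.16 under R 4.3.3 (filterByExpr, TMM factors of 0.9218 to 1.064, 5 group means over 16 libraries, 11 residual degrees of freedom, glmQLFTest). Adjustment was by Benjamini-Hochberg over 16606 genes, and all adjusted p-values are edgeR's unless another tool is named. CPM values use TMM-scaled library sizes. DESeq2 1.42.0, limma 3.58.1 (voom with quality weights), DESeq2 size factors, no count filter, only the compared libraries, RH cohort WT 1 in the other cohort, RH cohort WT 1 and RH HOMO 2 left out together, and each library left out were alternatives. A mitochondrial-share term and principal transcript lengths were added after seeing the data. Gene lengths, positions and overlaps came from GENCODE M21 (GRCm38), which held 48069 of the 48593 symbols; promoters came from RefSeq, with 9 of 9 genes matched. The fit was also run on simulated counts. The changes put in were larger than those of the 9 genes, so that run does not test differences of their size.

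The 9 genes, the gene lists and the markers were chosen with earlier results of these data known. Named were all 9 genes, the called genes of each list, all of the lists of demethylases, other accessory genes and EZH2-repressed genes, and the 5 genes most like Ezh2 and Ezh1 by Pearson r of log2 CPM (prior count 2). Lists were described by counts and medians, with no list test. A marker gene of the germinal centre and dark zone lists is not reported here, and the sums leave it out.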

Additional observations from a re-analysis of the deposited data

Results flagged for a closer look

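Phf19 had estimated genotype effects of opposite sign, higher in every KO library than in every KO cohort WT library and lower in every RH HOMO library than in every RH cohort WT library. Neither effect was called by edgeR (adjusted p = 0.376 in KO and 0.135 in RH HOMO). Of all tested genes, 25.4% did not overlap between KO and its wild type, and 15.4% between RH HOMO and its wild type. The 2 wild types also differed without overlap, with RH cohort WT higher by 0.14 on the log2 scale (adjusted p = 0.36, edgeR). The effect in RH HOMO less that in KO was -0.49 on the log2 scale. DESeq2 (adjusted p = 0.0178) and limma-voom (adjusted p = 0.0104) called this difference, and edgeR did not (adjusted p = 0.14). With the mitochondrial-share term the difference was -0.37 (adjusted p = 0.207, edgeR).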

How the results depend on the processing

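With 3 or 4 libraries a group, the intervals given above set how small a difference could be told from 0. Calls depended on the tool: 1 of the 9 genes was called in place of 0 by limma-voom in KO (Jarid2), by DESeq2 and limma-voom in RH HOMO (Phf19) and by DESeq2 and limma-voom for the difference of effects (Phf19). The other alternatives run on KO, RH HET, RH HOMO, RH HOMO against RH HET and the difference of effects called 0 of 9. Over all genes, edgeR called 216 in KO, 3 in RH HET, 261 in RH HOMO and 40 for the difference of effects. DESeq2 called 549, 40, 647 and 222, limma-voom 944, 244, 1120 and 645, and edgeR on only the compared libraries 699, 0, 0 and 10. Without the count filter edgeR called 295, 19, 387 and 109, and leaving out 1 library of the knockout cohort left 38 to 87 in KO, and leaving out RH HOMO 2 gave 382. Leaving out 1 library gave 115 (RH cohort WT 2) to 281 (RH HET 2) in RH HOMO, 0 to 7 in RH HET and 6 (KO cohort WT 2) to 67 (RH HOMO 2) for the difference of effects. Moving RH cohort WT 1 to the knockout cohort gave 102 in RH HOMO and 15 for the difference of effects, and leaving it out with RH HOMO 2 gave 461 in KO. For RH HOMO against RH HET, DESeq2 called 122 genes, limma-voom 89, edgeR without the count filter 63 and edgeR on only the compared libraries 2, against 0.

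Small differences changed sign. With RH cohort WT 1 moved to the knockout cohort, log2 fold changes were 0.052 for Mtf2 in KO, 0.030 for Jarid2 in RH HET, and 0.0082 for Ezh2 and 0.034 for Rbbp7 in RH HOMO. Without RH cohort WT 1 and RH HOMO 2 they were 0.037 for Jarid2 in RH HET, and 0.010 for Ezh2 and 0.079 for Suz12 in RH HOMO. With limma-voom they were 0.078 for Jarid2 and 0.0071 for Mtf2 in RH HET and 0.011 for Suz12 in RH HOMO. With the mitochondrial-share term they were 0.068 for Ezh2, -0.017 for Ezh1 and 0.019 for Rbbp7 in RH HOMO. Leaving out each library in turn gave -0.11 to 0.036 for Suz12 and -0.085 to 0.065 for Mtf2 in KO, and -0.096 to 0.037 for Jarid2 and -0.13 to 0.010 for Mtf2 in RH HET. In RH HOMO it gave -0.064 to 0.018 for Ezh2, -0.15 to 0.068 for Suz12, -0.079 to 0.032 for Rbbp4 and -0.074 to 0.044 for Rbbp7. The cause was not tested. Of 216 values per comparison, 4, 9 and 16 changed sign in KO, RH HET and RH HOMO. No paired analysis was possible because the labels give no replicate numbers.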
